A study of Homo sapiens with 5 samples.

Results

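The basement membrane is the thin sheet of extracellular matrix on which epithelial cells sit. To see how its genes behaved when DDB2 was overexpressed, 34 genes for basement membrane proteins and the integrins that bind them were followed in clones of CP70, a cisplatin-resistant derivative of the human ovarian cancer cell line A2780. A gene was given a value when a probe set of the array carried its symbol alone, and the probe set of highest mean over the arrays was used if a gene had several. This held for 30 of the 34 genes, among 22465 genes with such a probe set in all. LAMA5 and LAMB3 were carried only by probe sets that also name a microRNA, and LAMA3 and DAG1 by none in the annotation used, so these 4 genes were not analysed here. The genes were put together with the differences between DDB2 and vector clones already known. Those differences are therefore given as a description. Where a gene is said to lie past a threshold of limma's fit, this describes the fit and is no test of the gene.

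In the sheet, laminins assemble from 1 alpha, 1 beta and 1 gamma chain and form a network at the cell surface. Type IV collagen forms a second network, and nidogens and the heparan sulfate proteoglycan perlecan connect both. Integrins, each a pair of an alpha and a beta subunit, bind these proteins from the cell and anchor it to them. In the ovary such a sheet underlies the surface epithelium, and its laminins and collagens are substrates for ovarian cancer cells that attach and spread.

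Total RNA of 5 clones was measured, 1 array per clone. CP70-DDB2 clones 1, 2 and 3 were stably transfected with a DDB2 expression vector, and CP70-vector clones 1 and 3 with the empty vector; all were grown in the same medium with serum, and the labels name no other treatment. Each clone is a single selected line, so a difference between clones that arose on selection cannot be told apart from one between the groups with so few of them. The source name of vector clone 3 calls it clone 2, and the study's names for its DDB2 clones (1B, 3H and 4H) are not tied to the arrays in the labels. Values are RMA values on the log2 scale, where a difference of 1 is a 2-fold change, and values of different probe sets are not compared as levels. DDB2 itself had values of 9.87, 9.0 and 9.14 in the DDB2 clones, against 7.84 and 7.25 in the vector clones.

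The array medians lay between 4.46 and 4.51. The filter kept a probe set with 2 or more arrays above 4.48, the median over the whole table. This held for 21 of the 30 genes, and the other 9 lay under that level on all 5 arrays. Across the probe sets kept by the filter, the arrays correlated with each other at r between 0.914 and 0.969. The cells were checked against markers. The 10 markers of the line were ovarian, epithelial or, for VIM and CDH2, mesenchymal. KRT7, KRT8, KRT18, KRT19, PAX8, VIM and EPCAM exceeded the filter level on every array, CDH2 on 2, WT1 on 1 and CDH1 on none. EPCAM, an epithelial adhesion molecule, had values of 5.53, 5.44 and 5.29 in the DDB2 clones, against 7.26 and 5.86 in the vector clones. All DDB2 clones lay below both vector clones. The difference was -1.14, with an unadjusted P of 0.0476 and an adjusted p of 0.999 from limma, and the part of this marker in the results below was not tested. Of 6 endothelial markers, PECAM1, KDR, TEK and ERG lay under the filter level on all arrays. VWF exceeded it on all 5 and CDH5 on 2. Of 5 leukocyte markers, PTPRC, CD3E, CD14 and MS4A1 lay under it on all arrays, and CD68 exceeded it on all 5, at 6.12 to 7.33. The part of VWF, CDH5 and CD68 in the results below was not tested. Of 6 fibroblast markers with a value, COL1A1, COL1A2, PDGFRB and THY1 passed. The mean over these 6 was 4.40 to 5.40 in the DDB2 clones and 4.73 to 4.90 in the vector clones, and DCN and LUM exceeded the filter level only in DDB2 clone 1; their part in the results below was not tested.

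The promoters of the genes with the largest differences are shown first. They are only a part of the stretches in which regulation of NID1, LAMA2, ITGA6 and LAMB1 would be sought. Each window runs from 250 bases before to 50 bases after a start site in RefSeq (GRCh38.p14) and is written from 5′ to 3′ on the gene's strand. For ITGA6, which has several start sites, the most upstream is used. Capitals mark a GC box (GGGCGG on either strand) or TCCCCTT on either strand, which are the letters shared by the DDB2 elements that the study names in NEDD4L and NFKBIA. NID1 lies in chr1:236065041-236065340 (minus strand), LAMA2 in chr6:128882888-128883187 (plus), ITGA6 in chr2:172427086-172427385 (plus) and LAMB1 in chr7:108003112-108003411 (minus).
NID1: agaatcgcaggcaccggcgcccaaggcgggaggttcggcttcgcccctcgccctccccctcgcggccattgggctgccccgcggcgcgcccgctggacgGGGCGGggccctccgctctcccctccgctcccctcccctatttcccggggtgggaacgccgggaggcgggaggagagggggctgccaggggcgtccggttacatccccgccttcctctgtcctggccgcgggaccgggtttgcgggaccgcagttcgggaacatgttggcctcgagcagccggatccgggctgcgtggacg
LAMA2: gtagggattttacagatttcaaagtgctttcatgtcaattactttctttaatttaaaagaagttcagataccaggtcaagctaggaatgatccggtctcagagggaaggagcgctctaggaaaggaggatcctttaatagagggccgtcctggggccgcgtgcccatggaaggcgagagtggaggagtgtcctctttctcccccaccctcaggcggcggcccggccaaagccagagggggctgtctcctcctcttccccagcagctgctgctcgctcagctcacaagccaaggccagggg
ITGA6: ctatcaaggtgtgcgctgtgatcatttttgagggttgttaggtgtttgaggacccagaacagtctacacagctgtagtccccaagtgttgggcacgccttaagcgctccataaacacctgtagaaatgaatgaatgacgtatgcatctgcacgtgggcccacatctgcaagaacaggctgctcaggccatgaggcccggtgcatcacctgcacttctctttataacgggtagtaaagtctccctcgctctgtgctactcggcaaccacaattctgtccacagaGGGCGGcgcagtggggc
LAMB1: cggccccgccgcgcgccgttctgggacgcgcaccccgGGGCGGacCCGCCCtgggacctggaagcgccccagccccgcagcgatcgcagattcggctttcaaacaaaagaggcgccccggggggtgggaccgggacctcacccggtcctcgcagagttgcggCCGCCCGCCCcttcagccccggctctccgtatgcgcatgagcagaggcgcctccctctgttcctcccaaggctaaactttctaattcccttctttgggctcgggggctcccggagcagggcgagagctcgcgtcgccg
The window of NID1 held 1 GC box and that of ITGA6 1, while that of LAMB1 held 4, of which 2 overlap, and that of LAMA2 none. No match to TCCCCTT was present in these 4 windows. The study places its NEDD4L element further upstream of the start site than these windows reach, so the lack of a match does not cover such positions. Their GC content was 74.7% for NID1, 71.0% for LAMB1, 55.3% for LAMA2 and 53.0% for ITGA6.

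The genes COL4A1 and COL4A2, which encode the most widespread chains of type IV collagen, are read in opposite directions from start sites 127 bases apart. Their windows share 226 bases, chr13:110307108-110307333, printed here on the plus strand, in which COL4A2 is read, because the data bear on both genes at once.
COL4A1 and COL4A2 shared: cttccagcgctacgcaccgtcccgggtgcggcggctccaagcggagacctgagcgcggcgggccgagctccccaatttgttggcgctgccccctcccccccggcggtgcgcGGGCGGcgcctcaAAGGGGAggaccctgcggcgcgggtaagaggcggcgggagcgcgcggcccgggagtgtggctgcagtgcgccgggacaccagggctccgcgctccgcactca
This stretch held 1 GC box and 1 match to TCCCCTT, read as AAGGGGA on the plus strand. Among the genes with a value, 23 had RefSeq windows, 30 windows in all. Of these, 3 matched TCCCCTT, those of COL4A1, COL4A2 and ITGB5. The match in the shared stretch counts for both COL4A1 and COL4A2. Of all 34943 promoter windows of this length, 7.57% held a match. A GC box was found in 21 of the 30 windows and in 44.9% of all. The median GC content was 69.2% for the 30 windows and 58.7% for all. Such a match describes letters and is not a binding site. COL4A5 and COL4A6 are paired in the same way on chromosome X, with start sites 380 bases apart.

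The largest differences between the DDB2 and the vector clones were a higher NID1 and a lower LAMB1, followed by a higher LAMA2 and ITGA6. The other 26 genes differed by less than 0.5 on the log2 scale. In RNA of a whole culture, fewer cells that make a transcript and less of it per cell cannot be told apart. The median difference over the 30 genes was -0.03, beside -0.02 over all 22465 genes, with 13 genes above 0 and 17 below. Upward differences of 0.5 or more were found in 3 of the 30 genes, beside 2.56% of all genes, and downward ones in 1, beside 1.84%. The DDB2 clones lay wholly above the vector clones for 4 genes, beside 6.12% of all genes, and wholly below them for 8, beside 13.4%. The 4 were NID1, LAMB2, COL4A5 and ITGA6, and the 8 were LAMA4, LAMB1, COL4A1, COL4A2, ITGA2, ITGA7, ITGB4 and ITGB8. The study's thresholds are a change of more than 2-fold and a P below 0.05, and P was taken without adjustment here. By them, in limma, 1 of the 21 genes past the filter, NID1, was counted as higher and 1, LAMB1, as lower, beside 0.169% and 0.195% of the 15396 genes tested. As the genes were chosen on this contrast, nothing is read from these shares. None of the 21 had an adjusted p under 0.05 from limma, and neither did any other gene, while 449 genes (2.92%) had an unadjusted P under 0.05, 3 of them among the 21.

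**Figure D1:**
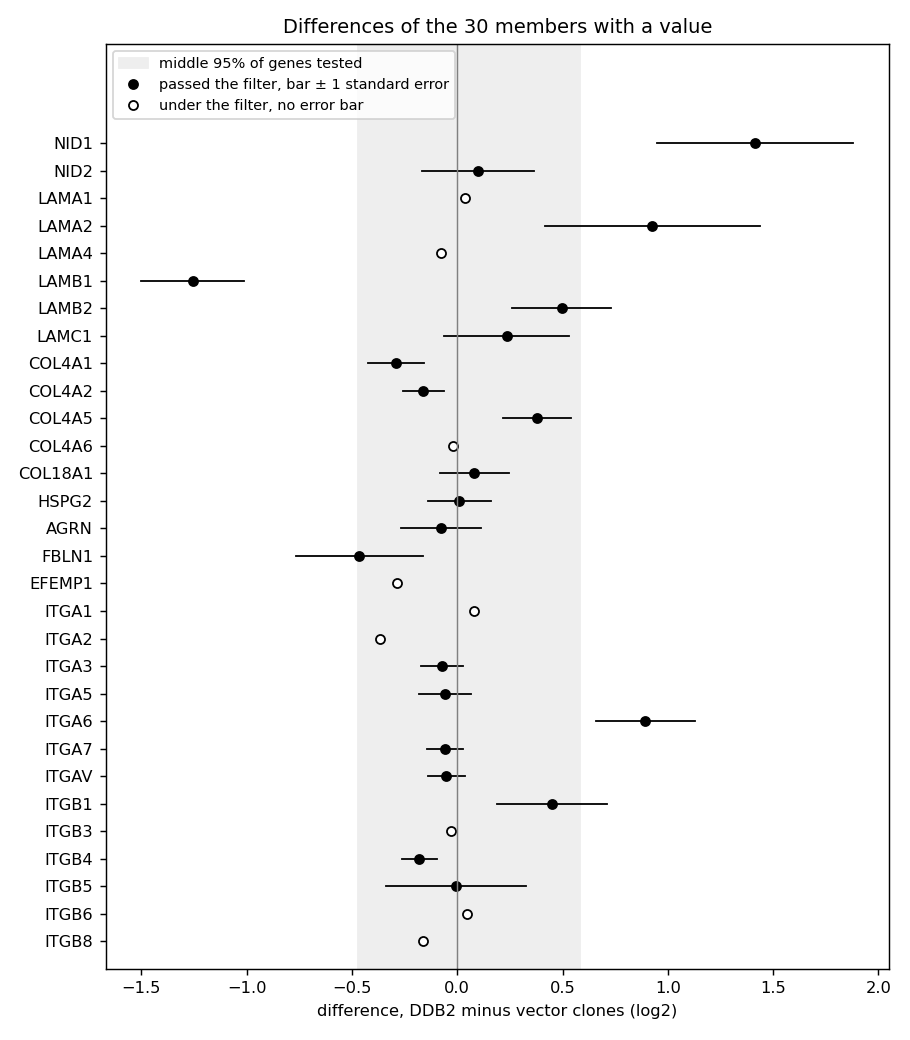
Difference between the mean of the 3 DDB2 clones and the mean of the 2 vector clones on the log2 scale for the 30 genes with a value. Filled points passed the filter and bars are 1 standard error from limma; open points lay under it, and the grey band from -0.47 to 0.58 holds the middle 95% of the 15396 genes tested. NID1, LAMA2 and ITGA6 lie above the band and LAMB1 below it.

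Nidogens link the laminin network to type IV collagen. NID1, which encodes nidogen-1, had values of 7.5, 8.59 and 8.98 in DDB2 clones 1, 2 and 3, against 7.04 and 6.85 in vector clones 1 and 3. All 3 DDB2 clones lay above both vector clones, and DDB2 clone 1 was the nearest to them. The mean was 8.36 ± 0.77 in the DDB2 clones (SD, n = 3) and 6.94 ± 0.13 in the vector clones (SD, n = 2), a difference of 1.41 (standard error 0.465) or 2.67-fold. It was 1.84 without DDB2 clone 1 and 1.10 without DDB2 clone 3. NID1 kept its place past both thresholds without DDB2 clone 1, but not without any of the other arrays. NID2, the second nidogen, had values of 5.20, 4.61 and 4.38 in the DDB2 clones, against 4.61 and 4.66 in the vector clones. The groups overlapped, since DDB2 clone 1 was the highest of all 5 and DDB2 clone 3 the lowest. Its difference of 0.10 (standard error 0.265) became -0.14 without DDB2 clone 1.

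**Figure D2:**
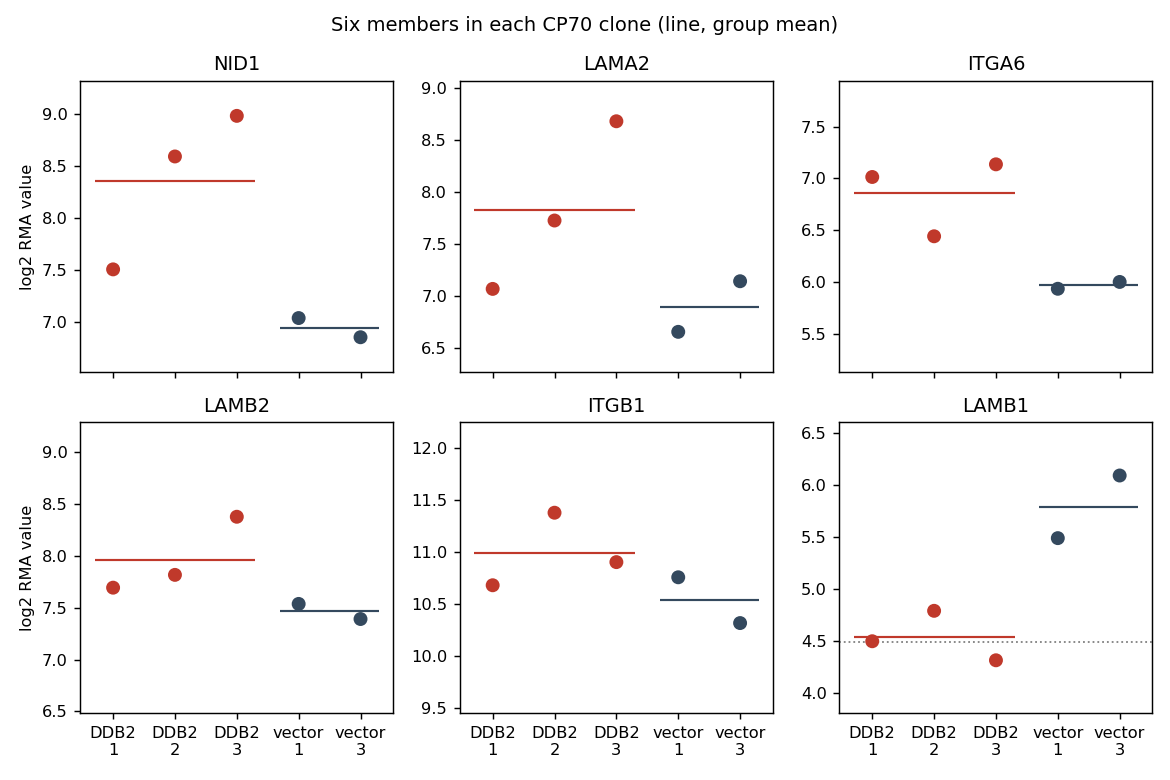
RMA values on the log2 scale in each clone for 6 genes, with 3 DDB2 clones (red) and 2 vector clones (dark). Horizontal lines are group means, the dotted line is the filter level of 4.48, and each panel spans the same range of values. In NID1, ITGA6 and LAMB2 the DDB2 clones lie above both vector clones, in LAMB1 below them, and in LAMA2 and ITGB1 the groups overlap.

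Among the laminin chains, the beta chains differed in opposite directions. LAMB1, the beta1 chain found in most laminins, had values of 4.49, 4.79 and 4.31 in the DDB2 clones, against 5.49 and 6.09 in the vector clones. All 3 DDB2 clones lay below both vector clones, and their values were near the filter level of 4.48, with DDB2 clone 3 under it. The mean was 4.53 ± 0.24 in the DDB2 clones (SD, n = 3) and 5.79 ± 0.43 in the vector clones (SD, n = 2). This is a difference of -1.26 (standard error 0.243), or 2.39-fold lower. It ranged from -1.56 without vector clone 1 to -0.96 without vector clone 3, and without vector clone 3 it no longer reached a 2-fold change. LAMB2, the beta2 chain, which is prominent at neuromuscular junctions and in the kidney filter, lay just under the difference of 0.5 at 0.497 (standard error 0.235). Its values were 7.69, 7.81 and 8.37 in the DDB2 clones, against 7.54 and 7.39 in the vector clones. All DDB2 clones were above both vector clones, though clone 1 by a small margin, and the difference was 0.29 without DDB2 clone 3.

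LAMA2, the alpha2 chain of muscle and nerve basement membranes, had values of 7.07, 7.73 and 8.68 in the DDB2 clones, against 6.66 and 7.14 in the vector clones. DDB2 clones 2 and 3 lay above both vector clones, but DDB2 clone 1 lay between them, so the groups overlapped. The difference was 0.93 (standard error 0.510), with an SD of 0.81 among the 3 DDB2 clones. It was 1.31 without DDB2 clone 1, 0.50 without DDB2 clone 3 and 0.68 without vector clone 1. Without DDB2 clone 1 it lay past both thresholds, in a fit that called 217 genes in all, against 56 on all arrays. LAMC1, the gamma1 chain that most laminins share, had values of 9.15, 9.95 and 9.93 in the DDB2 clones, against 9.29 and 9.59 in the vector clones. Here DDB2 clone 1 was the lowest of all arrays and the other DDB2 clones the highest, and the difference was 0.23 (standard error 0.297). It was 0.50 without DDB2 clone 1, but 0.08 without vector clone 1. LAMA1, the alpha1 chain of early embryonic membranes, and LAMA4, the alpha4 chain of vessel walls, lay under the filter on every array, with differences of 0.03 and -0.08.

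The chains of type IV collagen differed little. COL4A1 had values of 4.86, 4.86 and 4.94 in the DDB2 clones, against 5.00 and 5.35 in the vector clones. COL4A2, its neighbour across the shared promoter, had values of 5.06, 5.12 and 5.16 in the DDB2 clones, against 5.20 and 5.35 in the vector clones. In both genes the DDB2 clones lay below both vector clones and vector clone 3 was the highest. The differences were -0.29 (standard error 0.134) for COL4A1 and -0.16 (standard error 0.0970) for COL4A2. For COL4A1 the value was -0.46 without vector clone 1 and -0.12 without vector clone 3.

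COL4A5, a chain of specialised membranes such as that of the kidney filter, had values of 5.98, 5.94 and 6.33 in the DDB2 clones, against 5.80 and 5.61 in the vector clones. All DDB2 clones were above both vector clones, by a difference of 0.38 (standard error 0.162) that was 0.25 without DDB2 clone 3. COL4A6, which lies head to head with COL4A5, had values of 4.09, 4.13 and 4.15 in the DDB2 clones, against 4.20 and 4.10 in the vector clones. It lay under the filter on all arrays and differed by -0.02.

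The proteoglycans of the sheet were close to equal in both groups. HSPG2, which encodes perlecan, differed by 0.01, COL18A1, the collagen from which endostatin is cut, by 0.08, and AGRN, the agrin of neuromuscular junctions, by -0.08. In all 3 genes DDB2 clone 3 had the highest value of the 5 arrays. Fibulins are glycoproteins that bind elastic fibres and basement membranes. FBLN1 had values of 5.74, 5.95 and 6.46 in the DDB2 clones, against 6.20 and 6.83 in the vector clones. DDB2 clone 3 lay between the vector clones, and the difference was -0.46 (standard error 0.301), with -0.78 without vector clone 1 and -0.15 without vector clone 3. EFEMP1 was under the filter on all arrays and differed by -0.29, a value that became 0.10 without vector clone 3.

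DDB2 clone 3 carried the highest value for 13 of the 30 genes, beside 20.2% of all genes. These were NID1, LAMA1, LAMA2, LAMB2, COL4A5, COL18A1, HSPG2, AGRN, ITGA3, ITGA5, ITGA6, ITGB5 and ITGB6. LAMA1 and ITGB6 lay under the filter on all arrays, and ITGA3 was at 5.625, against 5.617 in vector clone 1. Among the 21 genes past the filter, the count was 11, beside 19.4% of all genes tested. Of the 30 genes, DDB2 clones 1 and 2 were highest for 2 each, beside 20.7% and 12.5% of all genes. Vector clones 1 and 3 were highest for 7 and 6, beside 18.4% and 28.1%. As the genes were chosen on the contrast of the groups, nothing is read from these counts. A range of 1 or more among the 3 DDB2 clones was found for 2 of the 30 genes, NID1 at 1.48 and LAMA2 at 1.61, beside 7.07% of all genes. Between the 2 vector clones, no gene of the 30 differed by as much, and EFEMP1 had the widest gap at 0.78. A gap between 2 clones tends to be smaller than a range over 3, so the spread of the groups is not compared.

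**Figure D3:**
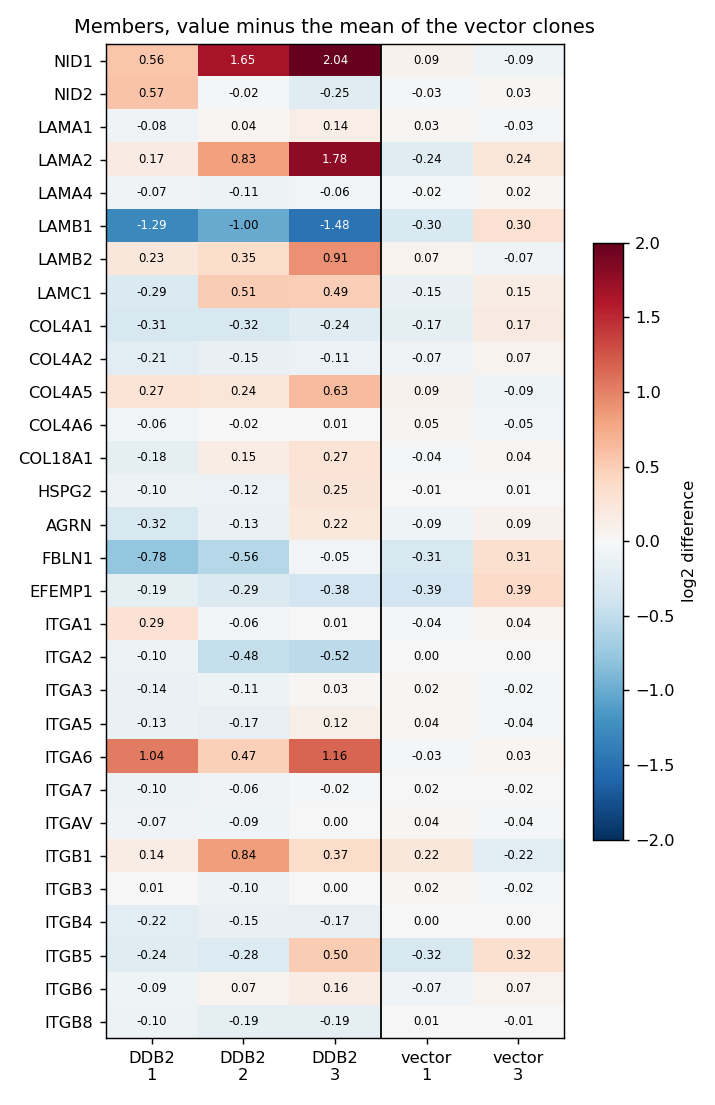
Each cell gives the value of a gene in a clone minus the mean of the 2 vector clones, on the log2 scale, for the 30 genes with a value; red is higher and blue lower, and the black line parts the DDB2 from the vector clones. NID1 runs from 0.56 to 2.04 and LAMA2 from 0.17 to 1.78 across the DDB2 clones, whereas LAMB1 is between -1.48 and -1.0 in all 3.

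Of the integrin alpha subunits, ITGA6 had the largest difference. It encodes the alpha6 subunit, which pairs with beta1 or beta4 and binds laminin. Its values were 7.01, 6.44 and 7.14 in the DDB2 clones, against 5.94 and 6.0 in the vector clones. All 3 DDB2 clones lay above both vector clones, with a difference of 0.89 (standard error 0.235) or 1.86-fold. It lay between 0.76 without DDB2 clone 3 and 1.10 without DDB2 clone 2, and without DDB2 clone 2 it met both thresholds of the study. The other 6 alpha subunits with a value differed by -0.37 to 0.08. Among them ITGA3, a laminin receptor subunit, was at -0.07, ITGA5, the fibronectin receptor subunit, at -0.06, ITGA7, a laminin receptor of muscle, at -0.06 and ITGAV, which pairs with several beta subunits, at -0.05. ITGA1 and ITGA2, subunits of collagen receptors, were under the filter on all arrays and differed by 0.08 and -0.37.

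ITGB1, the beta1 subunit shared by most of these receptors, had values of 10.68, 11.37 and 10.90 in the DDB2 clones, against 10.75 and 10.31 in the vector clones. DDB2 clone 1 lay between the vector clones, so the groups overlapped, and the difference was 0.45 (standard error 0.262). It was 0.67 without vector clone 1, 0.25 without DDB2 clone 2 and 0.23 without vector clone 3. Another 2 probe sets that carry ITGB1 alone differed by 0.00 and -0.10. ITGB4, which pairs with alpha6 in hemidesmosomes, had values of 5.31, 5.38 and 5.36 in the DDB2 clones, against 5.53 and 5.53 in the vector clones. The DDB2 clones lay below both vector clones by a small amount, -0.18 (standard error 0.0844). ITGB5, a subunit of a vitronectin receptor, had values of 6.01, 5.98 and 6.76 in the DDB2 clones, against 5.94 and 6.57 in the vector clones. Both groups spanned a similar range, and its difference of 0.00 ran from -0.32 to 0.31 with a vector clone left out. ITGB3, ITGB6 and ITGB8 lay under the filter on all arrays, with differences of -0.03, 0.04 and -0.16. ITGA6 was thus higher beside a small difference of the opposite sign in its partner ITGB4, and beside an ITGB1 whose groups overlapped.

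The other genes of the sheet and of cell adhesion were then counted in 8 lists with 133 genes, none of which is among the 34. A value was present for 120 of them, and 96 passed the filter. At the thresholds of the study, 1 of the 96 was higher and none was lower, beside 0.364% of all genes tested in either direction, and their median difference was -0.06. An unadjusted P under 0.05 from limma was found for 6 of the 96, beside 2.92% of all genes tested. These were FREM2, BCAM, LOXL2, POMGNT2, ADAM9 and SERPINE2. A range of 1 or more among the DDB2 clones was found for 17 of the 96, beside 9.42% of all genes tested. FREM2, an extracellular matrix protein of the basement membrane beneath the embryonic epidermis, was the gene that passed. It had values of 5.95, 4.95 and 5.62 in the DDB2 clones, against 4.61 and 4.05 in the vector clones. All DDB2 clones were higher, while vector clone 3 was under the filter level. The difference was 1.18 (standard error 0.354, adjusted p = 0.999 from limma). It did not pass without DDB2 clone 1, where it was 0.96, without DDB2 clone 3, at 1.12, or without vector clone 3, at 0.89. The count among the 96 was 4 without vector clone 1, 3 without DDB2 clone 1 and 0 without vector clone 3, where the counts over all genes tested were 230, 217 and 51, against 56 on all arrays. An exact permutation of 3 clones against 2 cannot give a p below 0.1 for any gene.

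Among 24 further basement membrane genes, 10 passed the filter and 9 of these missed the thresholds, FREM2 being the exception, with SPARC, a collagen-binding protein, at -0.32 and EFEMP2, a fibulin, at 0.26. None of 7 tested integrin subunits of 13 listed passed, and their differences lay between -0.08 and 0.05, with ITGA11, a collagen receptor subunit, at -0.08, and ITGAX and ITGAD, leukocyte subunits, at -0.05 each. Of 9 other receptors for laminin and collagen, 7 were tested and none passed. BCAM, a receptor of the laminin alpha5 chain, was at -0.58 (standard error 0.154, unadjusted P = 0.0139 and adjusted p = 0.999 from limma). All DDB2 clones lay below both vector clones for BCAM. DDR2, a collagen receptor kinase, at -0.61 and SDC2, a syndecan, at 0.60 had groups that overlapped. All 25 genes of the integrin adhesion complex were tested and none passed. PARVA, an actin-binding partner of the integrin-linked kinase, was at -0.99, VCL, which encodes vinculin, at -0.46 and TNS2, a tensin, at -0.43, all with overlap of the groups. PARVA passed without vector clone 1, at -1.71.

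Collagen folding and crosslinking were followed in 16 genes, of which 15 were tested and none passed. PLOD2 and LOX, which modify lysines of collagen for crosslinks, were at 1.31 and 1.25 with standard errors of 0.659 and 1.12, and LOXL2, a relative of LOX, at -0.70. PLOD2 passed without vector clone 1, at 2.25, a difference from vector clone 3 alone, whose value of 3.66 was under the filter level. Of 14 genes that glycosylate dystroglycan, a laminin receptor, 9 were tested and none passed, with B3GALNT2 at 0.32, POMK at 0.28 and POMGNT2 at -0.26. In the dystrophin complex, which joins dystroglycan to actin, 6 of 12 genes were tested and none passed. UTRN, which encodes utrophin, a relative of dystrophin, was at -1.64 (standard error 0.702), with DDB2 clones 2 and 3 under the filter level. The sarcoglycans SGCB and SGCA were at 0.55 and -0.19. Among 20 matrix proteases and inhibitors, 17 were tested and none passed. ADAMTS1, a protease of proteoglycans, was at -1.37 (standard error 1.49), ADAM9, a membrane protease, at 0.60 and SERPINE2, a protease inhibitor, at -0.55.

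**Figure D4:**
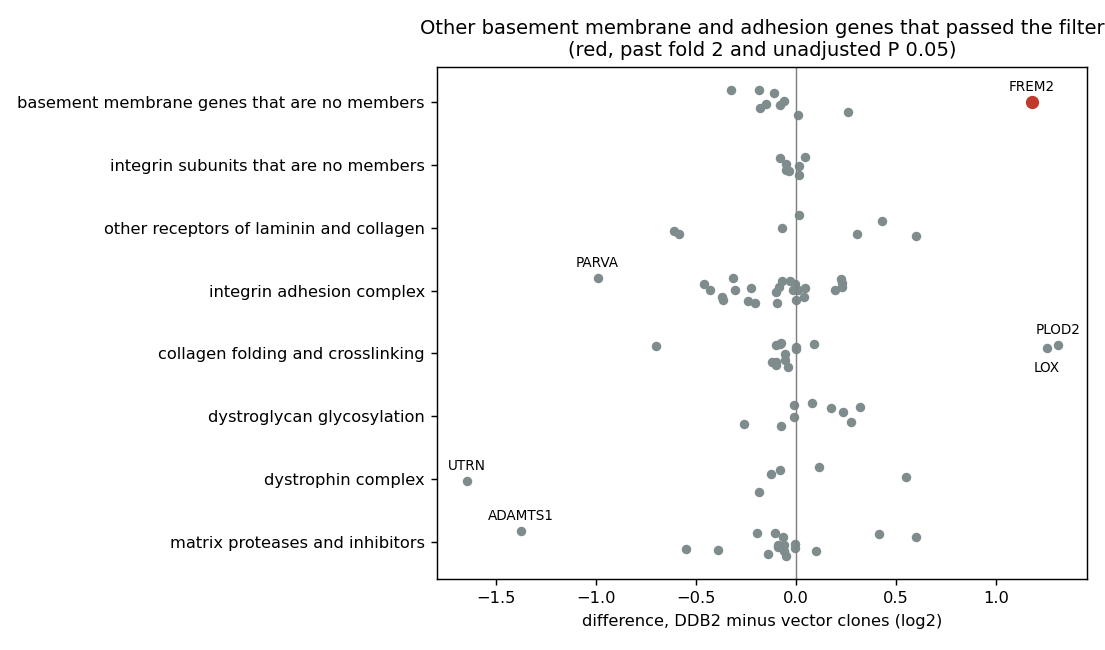
Differences between DDB2 and vector clones on the log2 scale for the 96 genes of 8 lists that passed the filter, 1 row per list and 1 point per gene, with points spread vertically for legibility. FREM2 (red) at 1.18 is the gene past both thresholds, and genes beyond 0.9 in either direction are named.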

How the data were processed

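RNA of 3 CP70-DDB2 clones and 2 CP70-vector clones was measured on the GeneChip Human Transcriptome Array, 1 array per clone. The authors used RMA in Affymetrix console software (version not given in the sources used here) for background correction, normalization and summary over probes. The deposited table holds the resulting log2 values; the log2 unit was read from their range. Of 70523 entries, 2995 controls were left out. The array annotation gives 23781 probe sets 1 gene symbol, 1543 several and 42204 none, and 34141 passed the filter. The number of arrays limits the precision.

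DDB2 and vector clones were compared by lmFit and eBayes of limma 3.58.1 (R 4.3.3) over all probe sets kept, with Benjamini-Hochberg adjustment over them, and the code was tested on simulated data. Members and gene lists were chosen with earlier results of these data known. Clone values are printed for members with a difference of at least 0.5, for the paired collagen genes, for LAMB1, LAMC1 and ITGB1, and for members with a range of at least 1 within a group. Values of NID2, LAMB2, FBLN1, ITGB4 and ITGB5 were added after they were seen. Of each further list, called genes and then the largest differences are named, up to 3. Alternatives were other filters, scalings, variance models and thresholds, numbers in the titles or source names as a block, each array left out, the mean of probe sets and the median of clones. Neither scanner files nor scan dates were used here. Promoters come from RefSeq (GRCh38.p14). Figures were drawn with matplotlib 3.10.9.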

Additional observations from a re-analysis of the deposited data

How the results depend on the processing

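The count of all genes called was 56; a filter at the 75th percentile gave 34, equal variances without shrinkage 22, a fold over 1.5 gave 163, and there were 0 at an adjusted p under 0.05 (limma; 449 genes at an unadjusted P under 0.05), and 45 to 230 with single arrays left out, highest without vector clone 1 and 217 without DDB2 clone 1. The count of members past the thresholds, 2, was 1 with the 75th percentile filter (NID1), 1 with equal variances (LAMB1), 0 at the adjusted p and 0 to 3 with single arrays left out, 0 without vector clone 3. The other genes of the lists, 1 of 96, came to 0 with the 75th percentile filter, 0 with equal variances, 0 at the adjusted p, 3 at a fold over 1.5, and 0 to 4 with arrays left out. The median difference of members ran from -0.078 to 0.011 with arrays left out, and the number of members with a difference of 0.5 or more from 4 to 8, highest without vector clone 1. Where 1 vector clone was left, it was assumed to vary like the DDB2 clones. Quantile normalization and centring of the arrays kept the calls of NID1 and LAMB1. Over single genes, 826 recomputed values kept their side of the thresholds or moved by less than 1 SD, 12 came past the thresholds, 17 were no longer past them and 7 moved by more than 1 SD. No called value changed sign.

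With the number in the titles as a replicate block, the list count was 2 and 62 genes were called in all; ITGA6 and LAMB1 were past the thresholds among members, and NID1 was not. With the numbers in the source names as the block, 91 genes, 1 member (LAMB1) and 3 list genes were called, and the median of members was -0.078. Deviations from the group means correlated across the probe sets kept at 0.130 for the arrays numbered 1 and 0.342 for those numbered 3 in the titles. With 2 such pairs the arrays share a number and are not taken as paired. As there are 2 vector clones, their deviations are equal with opposite signs, so these 2 correlations are not independent. Either block sets 1 DDB2 clone aside. The cause of these changes was not tested.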

Other observations

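Some genes of the matrix and adhesion lists differed widely among the DDB2 clones. A range of 1 or more among the 3 DDB2 clones was found for 17 of the 96 list genes past the filter, beside 9.42% of all genes tested. ADAMTS1 had 9.11, 5.21 and 4.76 in DDB2 clones 1, 2 and 3, against 6.99 and 8.48 in the vector clones. UTRN had 5.59, 3.70 and 3.71 in the DDB2 clones, against 6.42 and 5.54 in the vector clones. DDB2 clone 1 was above both vector clones for ADAMTS1 and between them for UTRN, while DDB2 clones 2 and 3 lay below both vector clones for either gene. For UTRN, the values of DDB2 clones 2 and 3 were under the filter level of 4.48. DMD, which encodes dystrophin, had 7.32, 3.48 and 3.13 in the DDB2 clones, against 5.46 and 3.60 in the vector clones. Its values in DDB2 clones 2 and 3 and in vector clone 3 were under that level. LOX had 7.78, 6.46 and 4.14 in the DDB2 clones, against 5.27 and 4.48 in the vector clones, with DDB2 clone 3 the lowest of all. SDC2, a syndecan, had 4.40, 6.05 and 5.66 in the DDB2 clones, against 4.97 and 4.57 in the vector clones. DDR2 had 7.81, 9.75 and 9.48 in the DDB2 clones, against 10.1 and 9.11 in the vector clones, with DDB2 clone 1 again apart from the other DDB2 clones. PLOD2 had 5.28, 6.13 and 6.34 in the DDB2 clones, against 5.55 and 3.66 in the vector clones, and vector clone 3 was under the filter level. FN1, which encodes fibronectin, had 7.17, 3.81 and 3.89 in the DDB2 clones, against 4.40 and 3.76 in the vector clones. It exceeded the filter level only in DDB2 clone 1 and was not among the genes tested. These genes were chosen after their values were seen.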
